A study of Homo sapiens with 12 samples.

Results

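Ribosomal protein pseudogenes are rows of the count table named after a ribosomal protein gene with a P and a number behind it, such as RPL13P12. The table held 919 rows with such a name among its 58684 rows. Of these, 27 were selected on measured values, namely at least 50 counts summed over the 12 libraries, and they are described here. A further 381 rows had 1 to 49 counts and 511 had none. The totals of the 27 ran from 53 (RPL13P4) to 1144 (RPL13P12). RPL7P42 with 56 and RPS2P46 with 58 lay next to RPL13P4 just inside the threshold, and RPL21P121 with 49, RPL7P57 with 49 and RPL21P122 with 48 just outside it.

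The libraries came from U2OS, a human osteosarcoma cell line, made into stable lines with either EIF4E-Flag or the empty vector. From each kind of cell there was total RNA (input) and RNA recovered by an immunoprecipitation of the cap (Cap IP), with 3 libraries in each of the 4 groups. No other treatment, time or clone is named in the labels, nor is the promoter of the transgene. EIF4E is the protein that binds the m7G cap, the methylated guanosine at the start of an mRNA, and the series asked by its title whether it raises the share of transcripts that carry the cap. The labels do not say whether the 3 libraries of a group came from separate cultures, so p-values measure the spread between these libraries, which may be technical.

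A processed pseudogene arises when an mRNA is copied back into DNA and inserted elsewhere in the genome, without introns and without the promoter of its parent. Ribosomal protein mRNAs are short, abundant and made in every cell, and they have left more such copies in the human genome than most gene families. A copy can give RNA where it landed beside or within something that is transcribed. Its RNA, or a read of a longer transcript through it, can carry a cap only if that transcript does. Because a copy resembles its parent, a short read may fit both.

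The libraries held 1206321 to 1813486 counts, of which 295 to 704 per library, or 0.0213 to 0.0416 percent, fell in the 27 pseudogenes. Counted as a floor, 3 reads came to between 1.19 and 3.15 CPM, the count scaled to the effective size of the library. VIM, COL1A1, SPARC and FN1, markers of mesenchymal and bone cells, were present in every library. COL1A2 had 2 counts over all 12 libraries, the blood markers PTPRC and HBB had 2 and 0, and EPCAM reached at most 9.58 CPM. The bone marker RUNX2 was low, at 2.05 to 20.7 CPM. Some markers of other cell types were also present in every library: the epithelial CDH1 at 3.37 to 29.4 CPM, and the neuronal RBFOX3 at 1.28 to 28.2 and SNAP25 at 2.77 to 14.4. EIF4E itself had 9 to 15 counts in vector input and 23 to 39 in EIF4E-Flag input, which did not overlap in CPM either (log2 change 0.98 ± 0.36, edgeR adjusted p = 0.231).

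GENCODE release 44 placed 26 of the 27 on GRCh38 by symbol, and RPL9P9 was not placed. Of the 26, 25 are annotated as processed pseudogenes. RPL23AP82, on chromosome 22, is annotated as a transcribed unprocessed pseudogene. Most of the 26 lay inside another gene on the opposite strand: 12 in an intron and 5 over an exon. The genes that held them in an intron included CENATAC around RPL23AP64, ZSWIM6 around RPL3P6, EXOG around RPL18AP7, POLQ around RPL7AP11, TOP3A around RPL7AP65 and SIN3A around RPL13P4. An exon lay opposite RPS11P5 (GOLGA3), RPL12P1 (KIFC1), RPS6P16 (PTS), RPL36P4 (ERGIC3) and RPL7P42 (NUP107-DT). Another 4 shared the strand of a non-coding gene, namely RPL23AP82, RPL18P13, RPL41P5 and RPS2P46, and 5 overlapped no other annotated gene: RPL13P12, RPL12P14, RPL13AP20, RPS4XP6 and RPS15AP11.

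The share with a gene on the opposite strand was higher among rows with more counts. It was 23.2 percent (118 of 508 placed rows) among those with no counts, 51.5 percent (194 of 377) among those with 1 to 49, and 65.4 percent (17 of 26) among the 27. Rows that overlapped no other gene made up 55.3, 34.0 and 19.2 percent in the same order. Counts were used to form these bins, so the shares are a description. The library kit keeps the strand of the RNA, per the labels, but whether the counting used the strand is not stated in what was available here, and without strand the reads of a pseudogene and of the gene around it cannot be told apart.

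**Figure D1:**
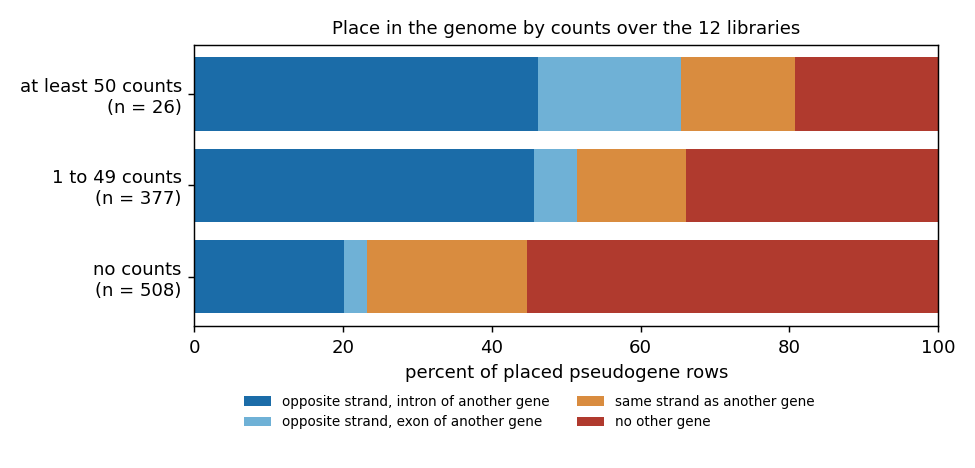
Bars give the percent (horizontal axis) of placed rows of the ribosomal protein pseudogene name pattern in each of 4 places in the genome, with the rows split by their counts over the 12 libraries. Blue shades, genes on the opposite strand, take 23.2 percent of rows with no counts and 65.4 percent of rows with at least 50 counts.

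The sequences show how near the copies are to their parents and where a 75-base read can tell them apart. For 5 members on which the results below turn, 100 bases of the coding part are given 5′ to 3′ with the matching stretch of the parent mRNA, in lower case with each base that differs between both in capitals. RPL13P12 is read at chr17:17383913-17384012 on the minus strand and RPL12P14 at chr1:15792865-15792964 on the plus strand. RPL13AP20 is read at chr12:12875499-12875598 on the plus strand. RPL3P6 is read at chr5:61391772-61391871 and RPL23AP64 at chr11:119003297-119003396, both on the minus strand. All positions are of GRCh38.
RPL13P12: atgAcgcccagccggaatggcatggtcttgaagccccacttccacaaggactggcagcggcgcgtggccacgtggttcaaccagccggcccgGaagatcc
RPL13, for RPL13P12: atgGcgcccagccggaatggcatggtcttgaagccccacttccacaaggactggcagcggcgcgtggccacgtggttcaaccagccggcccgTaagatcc
RPL12P14: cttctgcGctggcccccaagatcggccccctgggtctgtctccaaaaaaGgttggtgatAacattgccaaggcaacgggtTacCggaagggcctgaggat
RPL12, for RPL12P14: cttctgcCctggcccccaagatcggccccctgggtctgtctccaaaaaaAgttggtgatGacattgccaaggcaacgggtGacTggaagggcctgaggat
RPL13AP20: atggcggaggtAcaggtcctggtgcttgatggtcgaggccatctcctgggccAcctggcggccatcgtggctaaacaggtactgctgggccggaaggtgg
RPL13A, for RPL13AP20: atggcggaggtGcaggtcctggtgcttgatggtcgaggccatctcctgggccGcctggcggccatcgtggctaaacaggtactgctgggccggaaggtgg
RPL3P6: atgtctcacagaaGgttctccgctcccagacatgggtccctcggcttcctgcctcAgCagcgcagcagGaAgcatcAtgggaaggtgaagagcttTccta
RPL3, for RPL3P6: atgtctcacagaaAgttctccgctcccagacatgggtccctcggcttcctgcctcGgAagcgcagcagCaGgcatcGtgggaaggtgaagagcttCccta
RPL23AP64: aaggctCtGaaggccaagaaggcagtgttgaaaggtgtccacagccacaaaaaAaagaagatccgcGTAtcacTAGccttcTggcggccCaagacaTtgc
RPL23A, for RPL23AP64: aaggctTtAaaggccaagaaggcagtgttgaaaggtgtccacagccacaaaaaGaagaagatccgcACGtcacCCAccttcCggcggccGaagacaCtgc

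RPL13P12 and RPL13AP20 differed from their parents at 2 of these 100 bases each, RPL12P14 at 5, RPL3P6 at 7 and RPL23AP64 at 12. Over the whole copy, identity to the parent mRNA was 98.4 percent for RPL13P12, 94.9 for RPL12P14, 96.7 for RPL13AP20, 91.4 for RPL3P6 and 92.6 for RPL23AP64. Over all placed members it ran from 79.5 percent (RPL13P4) to 100 percent (RPL41P5, a copy of 78 bases).

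Whether a read can be assigned depends in part on how many 75-base windows of a member stand at 1 place in the genome. All windows did so in 13 of the 26 placed members, among them RPL23AP64, RPL18P13, RPL3P6, RPS24P6 and RPS4XP6. The share was 94.0 percent in RPL12P14, 89.2 in RPL13AP20 and 82.4 in RPL13P12. It was low in RPL29P11 (46.4 percent), RPS2P5 (38.6 percent) and RPL23AP82 (34.9 percent), whose counts are uncertain. RPL41P5 had no such window, since each stood at 6 places. In vector cells its counts were 0, 15 and 2 for input and 0, 19 and 0 for Cap IP, and in EIF4E-Flag cells 1, 0 and 22 for input and 16, 1 and 1 for Cap IP. Single libraries thus held nearly all counts of RPL41P5, and its own change is not read further. It stays in the sums, counts and medians of the members and of its place in the genome. Windows were searched in genomic DNA only, so one shared with the spliced parent mRNA across an exon junction can still count as standing at 1 place. Windows identical to the parent mRNA numbered 160 of 562 in RPL13P12, 58 of 535 in RPL13AP20, 25 of 416 in RPL12P14 and 1 of 723 in RPS4XP6. Reads of these windows cannot be told from reads of the parent.

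Cap IP was first compared with input, the study's measure of capping. In vector cells 4 members were higher in Cap IP and 10 lower among the 19 that passed the filter on low counts, where 18.5 percent of all 12460 genes tested were higher and 21.0 percent lower. In EIF4E-Flag cells 4 were higher and 7 lower, against 21.9 and 23.3 percent of all genes. The test was edgeR's quasi-likelihood test with Benjamini-Hochberg adjustment over all genes and a threshold of 0.05. Libraries of Cap IP and input without overlap are named below for single members. Of all genes tested, 22.7 percent were higher and 27.2 percent lower without overlap in vector cells. In EIF4E-Flag cells the shares were 25.4 and 29.5 percent. The median log2 change of the 19 was -1.62 in vector cells, where all genes had a median of -0.045, and -0.54 in EIF4E-Flag cells, where all genes had -0.133. A filter of this kind keeps a member through the group in which it is high, so the 19 are not a sample of the 27. The 8 members not tested were RPL9P9, RPS20P4, RPL36P4, RPL7AP6, RPS4XP14, RPS15AP11, RPS2P46 and RPL7P42.

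The members were then grouped by place in the genome. All 4 members called higher, in both kinds of cells RPL13P12, RPL12P14, RPL23AP82 and RPL18P13, overlapped no other gene or shared the strand of a non-coding one. Of the 10 called lower in vector cells, 8 lay in an intron of a gene on the opposite strand. Summed over the 12 intron members, the level was 110, 103 and 134 CPM in the libraries of vector input and 13.6, 26.3 and 16.6 CPM in those of vector Cap IP. In EIF4E-Flag cells the same sum was 88.2, 87.0 and 76.8 CPM in input and 24.6, 28.01 and 32.7 CPM in Cap IP. Input and Cap IP libraries did not overlap in either kind of cell. With the counts of the 3 libraries pooled, Cap IP over input was 0.156 in vector cells and 0.337 in EIF4E-Flag cells for this sum, and 11 of the 12 members lay below input in each. The exception was RPS2P5 in vector cells (1.15) and RPL7AP65 in EIF4E-Flag cells (1.01).

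The other places gave other ratios. The 5 members opposite an exon had summed ratios of 0.616 in vector and 1.08 in EIF4E-Flag cells. The 4 members on the strand of another gene had 2.30 and 2.56, with all 4, RPL41P5 among them, above input in both. The 5 members that overlapped no other gene had 2.36 and 2.74, carried by RPL13P12 and RPL12P14. RPS4XP6 and RPS15AP11 lay below input in both kinds of cells. RPL13AP20, the median of the 5, had 1.14 in vector cells and 0.711 in EIF4E-Flag cells. Fewer copies of an RNA and a smaller share of it with a cap cannot be told apart in a single Cap IP value, and the ratio to input is relative to the average gene. In bulk RNA, fewer cells with a transcript and less of it per cell cannot be told apart either.

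**Figure D2:**
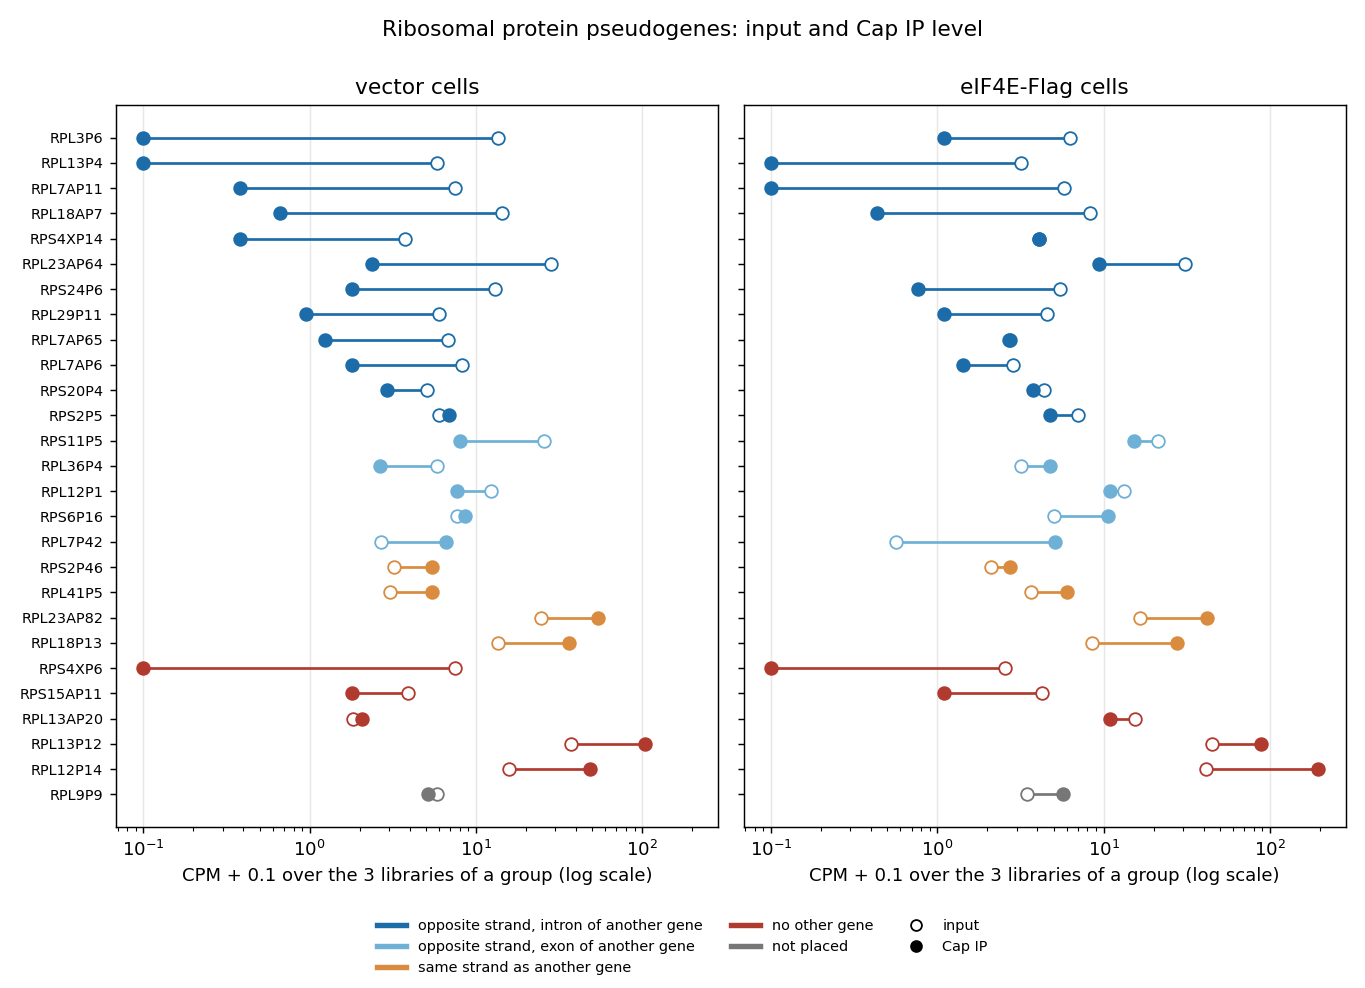
Each line joins the pooled input level (open circle) and Cap IP level (filled circle) of a pseudogene, in CPM plus 0.1 on a log axis, for vector cells (left) and EIF4E-Flag cells (right), coloured by place in the genome. Most dark blue lines, the intron members, run to a lower Cap IP level, while RPL13P12, RPL12P14, RPL23AP82 and RPL18P13 run to a higher one.

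**Figure D3:**
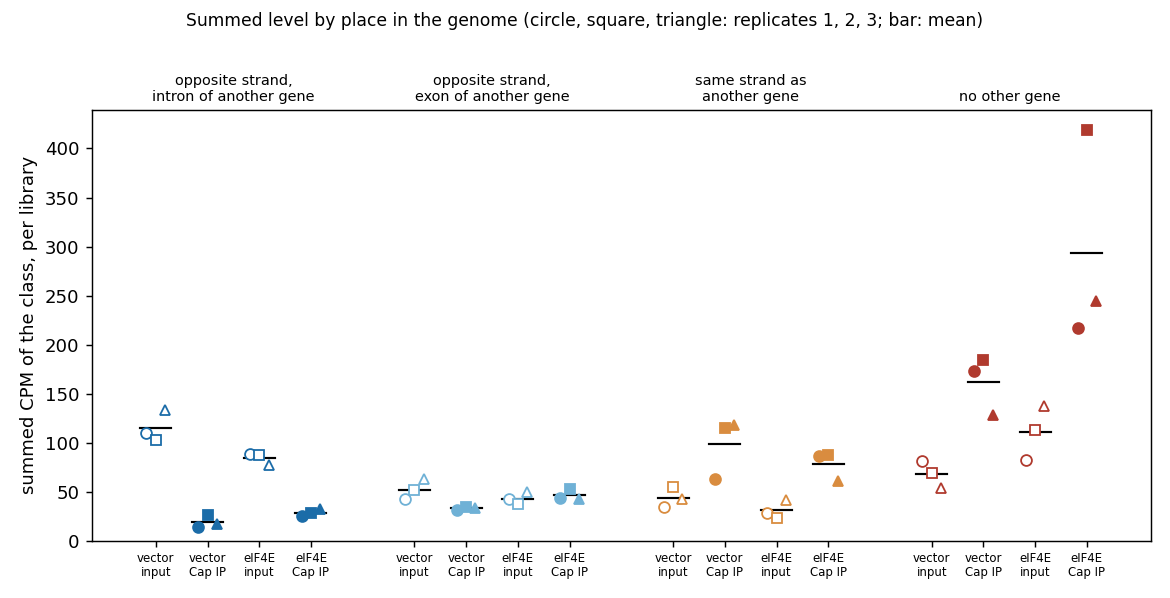
Points are the summed CPM (vertical axis) of the members of each place in the genome in each of the 12 libraries, open for input and filled for Cap IP, with the mean of 3 as a bar. The intron members fall from 103 to 134 CPM in vector input to between 13.6 and 26.3 CPM in vector Cap IP.

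RPL13P12 copies RPL13, a protein of the large ribosomal subunit, and stands alone at chr17:17383377-17384012. It had 61, 76 and 79 counts in vector input, against 103, 98 and 167 in vector Cap IP. In EIF4E-Flag cells input held 95, 75 and 122 counts of it and Cap IP 70, 97 and 101. Scaled, the levels were 37.8 ± 3.93 and 103 ± 3.24 CPM (SD, n = 3) in vector cells, and 45.9 ± 15.2 and 88.6 ± 14.8 CPM in EIF4E-Flag cells, with no overlap of Cap IP and input in either. The log2 change was 1.45 ± 0.28 (SE, edgeR adjusted p = 4.89e-04) in vector cells and 0.95 ± 0.28 (edgeR adjusted p = 0.00893) in EIF4E-Flag cells. The second call was lost without replicate 2 of EIF4E-Flag input (log2 change 0.81) and without a filter on low counts (0.79). RPL13 itself changed by 0.99 ± 0.33 (edgeR adjusted p = 0.0223) in vector cells and by 0.39 ± 0.33 (adjusted p = 0.348) in EIF4E-Flag cells, and the difference between copy and parent was not tested.

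RPL12P14 copies RPL12, another protein of the large subunit, and lies at chr1:15792796-15793285. In vector cells its input libraries held 46, 33 and 12 counts and its Cap IP libraries 71, 73 and 28, so that both groups overlapped. The input libraries of EIF4E-Flag cells held 68, 103 and 96, against 131, 325 and 132 for Cap IP. The log2 change of Cap IP against input was 1.65 ± 0.55 (edgeR adjusted p = 0.0209) in vector cells and 2.19 ± 0.51 (edgeR adjusted p = 0.00179) in EIF4E-Flag cells. The vector call was lost on leaving out replicate 2 or 3 of vector input or replicate 1 or 2 of vector Cap IP, with log2 changes between 1.18 and 1.69. These fits took the libraries as unpaired. With the title stem as a block, the log2 change in vector cells was 1.69 ± 0.3 (edgeR adjusted p = 9.37e-06). RPL12 did not pass the test in either kind of cell, with 0.57 ± 0.33 and 0.10 ± 0.32. As a share of the counts of RPL12, RPL12P14 ran from 3.08 percent in a vector input library to 82.9 percent in an EIF4E-Flag Cap IP library.

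RPL23AP82 and RPL18P13 share their strand with a non-coding gene. RPL23AP82 copies RPL23A, a large subunit protein near the exit of the peptide tunnel, and had 25, 61 and 56 counts in vector input, against 27, 54 and 111 in vector Cap IP. Its log2 change was 1.09 ± 0.37 (edgeR adjusted p = 0.0227) in vector and 1.36 ± 0.38 (edgeR adjusted p = 0.00653) in EIF4E-Flag cells. The vector call was lost without replicate 1 or 3 of input or replicate 2 or 3 of Cap IP (0.77 to 1.07). With the title stem as a block, the log2 change in vector cells was 1.07 ± 0.28 (edgeR adjusted p = 0.00161). RPL18P13, a copy of the large subunit protein RPL18, had 25, 17 and 36 counts in vector input, against 34, 31 and 64 in vector Cap IP. Its log2 change was 1.401 ± 0.38 in vector cells (edgeR adjusted p = 0.00605) and 1.66 ± 0.40 (edgeR adjusted p = 0.0022) in EIF4E-Flag cells. RPL18 rose by 1.11 ± 0.29 in vector cells (adjusted p = 0.00502).

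RPL23AP64, another copy of RPL23A, lies in an intron of CENATAC and gave the most counts of the intron members. It had 50, 57 and 57 counts in vector input, against 1, 3 and 4 in vector Cap IP. In EIF4E-Flag cells input held 84, 61 and 56 counts and Cap IP 7, 9 and 12. Input and Cap IP did not overlap in either kind of cell, and the log2 change was -3.64 ± 0.44 (edgeR adjusted p = 6.61e-06) in vector cells and -1.72 ± 0.36 (edgeR adjusted p = 6.45e-04) in EIF4E-Flag cells. RPL23A did not pass the test, with 0.42 ± 0.25 and 0.14 ± 0.25. The 2 copies of RPL23A, RPL23AP82 and RPL23AP64, were thus called in opposite directions in both kinds of cells.

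Several members were seen in input and not at all in vector Cap IP. RPL3P6, a copy of the large subunit protein RPL3 in an intron of ZSWIM6, had 11, 16 and 51 counts in vector input and 0, 0 and 0 in Cap IP. With 3 counts over the 3 Cap IP libraries as the floor, it was at least 15.9-fold lower (edgeR adjusted p = 3.44e-04). Of its 78 counts, 51 came from replicate 3, the deepest library, and the call held without that library. RPS4XP6, a copy of the small subunit protein RPS4X that overlaps no other annotated gene, had 9, 6 and 28 counts in vector input and 0, 0 and 0 in Cap IP, at least 8.78-fold lower (edgeR adjusted p = 0.00364). RPL13P4, in an intron of SIN3A, had 10, 9 and 14 against 0, 0 and 0, at least 6.74-fold lower (edgeR adjusted p = 0.00248). RPL13P4 and RPL13P12 are both copies of RPL13, at 79.5 and 98.4 percent identity, and were called in opposite directions.

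The remaining members called lower in vector cells kept a few Cap IP counts. RPL18AP7, in an intron of EXOG, had 82 counts over the vector input libraries and 2 over the Cap IP libraries, a log2 ratio of -4.65 (95 percent interval -7.72 to -2.75). RPL7AP11, in an intron of POLQ, had 43 against 1, a log2 ratio of -4.72 (-10.1 to -2.16). RPL29P11 had 34 against 3, a log2 ratio of -2.80 (-5.14 to -1.13). These intervals cover counting error only. RPS24P6, copied from the small subunit protein RPS24, had a log2 change of -2.89 ± 0.60 (edgeR adjusted p = 7.96e-04), with 19, 21 and 35 counts in vector input and 1, 1 and 4 in Cap IP. RPL7AP65 fell by 2.501 ± 0.70 (edgeR adjusted p = 0.00774), and RPS11P5, opposite an exon of GOLGA3, fell by 1.62 ± 0.41 (edgeR adjusted p = 0.00429). Leaving out replicate 3 of vector Cap IP ended the calls of RPL29P11 (-2.43) and RPL7AP65 (-2.13). With the title stem as a block, RPL29P11 had -2.64 ± 0.90 (edgeR adjusted p = 0.0138) and RPL7AP65 had -2.49 ± 0.81 (edgeR adjusted p = 0.00944).

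In EIF4E-Flag cells 7 members were called lower. RPL7AP11 had 10, 10 and 17 counts in input and none in Cap IP, at least 5.73-fold lower (edgeR adjusted p = 0.00116). RPL13P4 was at least 3.10-fold lower (20 counts against 0) and RPS4XP6 at least 2.48-fold lower (16 against 0). RPL18AP7 had 53 against 1 (log2 ratio -4.62, 95 percent interval -9.95 to -2.08), RPS24P6 had 35 against 2 (-3.02, -6.12 to -1.06) and RPL3P6 had 40 against 3 (-2.63, -4.97 to -0.979). The call of RPS4XP6 was lost on leaving out replicate 1 of input, where 12 of the 16 counts lay, or any Cap IP library, and that of RPL13P4 without replicate 1 of input. The call of RPL3P6 was lost without replicate 2 or 3 of input or replicate 1 or 2 of Cap IP, with fitted values between -2.45 and -2.01. RPS11P5 (-0.49 ± 0.39) and RPL7AP65 (-0.0057 ± 0.72), called lower in vector cells, did not pass the test here. Neither did RPL29P11 (-2.06 ± 0.84, edgeR adjusted p = 0.0516), with 29 counts against 3, a log2 ratio of -2.17 (-4.52 to -0.476) and libraries that did not overlap. It was called with DESeq2 size factors (-2.09, adjusted p = 0.0486) and with total counts as library sizes (-2.90, adjusted p = 0.00651).

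The parent mRNAs were read from the same fit. Of 80 ribosomal protein mRNAs in the table, 75 were tested, and 28 were higher and 0 lower in vector Cap IP (47 higher with the title stem as a block, but 2 higher and 2 lower with total counts as library sizes), with a median log2 change of 0.64. In EIF4E-Flag cells 6 were higher and 0 lower, with a median of 0.26, and the direction turned with total counts, which gave 0 higher and 30 lower. Without replicate 3 of vector input 15 were called in vector cells, and without replicate 3 of EIF4E-Flag input 16 were called in EIF4E-Flag cells. Among parents of members called lower, RPS24 rose by 1.11 ± 0.28 in vector cells (edgeR adjusted p = 0.00356), while RPS24P6 fell. RPL3 (0.33 ± 0.28) and RPS4X (0.22 ± 0.25) did not pass the test. The difference between copies and parents was not tested.

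**Figure D4:**
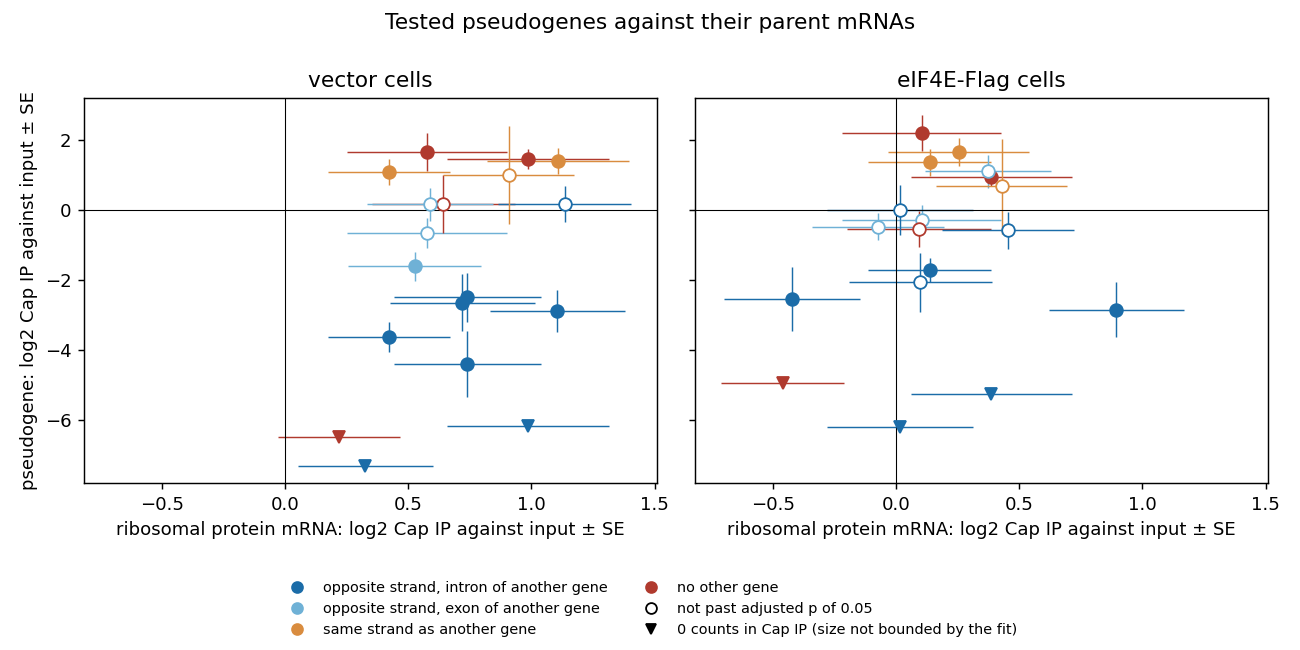
Each point is 1 of the tested pseudogenes, all but 1 of the 19, with its log2 change of Cap IP against input (vertical axis) against that of its parent mRNA (horizontal axis), ± SE, in vector cells (left) and EIF4E-Flag cells (right); open points did not pass an adjusted p of 0.05, and triangles had 0 Cap IP counts, so that their fitted value gives no size. Most intron members in dark blue lie low while their parents lie between -0.42 and 1.14.

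Processed pseudogenes of other genes were placed in the same way. Of those in an intron on the opposite strand, 60 were tested in vector cells, of which 40 were lower and 2 higher in Cap IP, with a median log2 change of -2.80 (-2.77 with rows at 0 set to their bound). The 9 tested members of that place had 8 lower and 0 higher, with a median of -3.64 (-2.89 with the 2 members at 0 set to their bound). In EIF4E-Flag cells the 60 had 29 lower and 4 higher with a median of -2.12 (-1.89 at the bounds), and the 9 members had 6 lower and 0 higher with a median of -2.56 (-2.06 at the bounds). Among other processed pseudogenes that overlap no gene, 12 were tested, with 3 higher and 2 lower in vector cells and 5 higher and 2 lower in EIF4E-Flag cells. Of those opposite an exon 41 were tested, with 6 higher and 12 lower in vector cells and 12 higher and 9 lower in EIF4E-Flag cells. The 3 tested members of that place had 0 higher and 1 lower in vector cells, and 0 of either in EIF4E-Flag cells. Of those on the strand of another gene only 2 were tested, with 0 higher and 2 lower in vector cells and 0 higher and 1 lower in EIF4E-Flag cells, whereas the 3 tested members of that place had 2 higher and 0 lower in each. Nuclear copies of mitochondrial genes, of which 7 of 12 were tested, had 6 lower and 0 higher in vector cells, and 3 lower and 0 higher in EIF4E-Flag cells. The difference between members and these rows was not tested.

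Genes around the members had rows of their own. GOLGA3, a Golgi protein with an exon opposite RPS11P5, was lower in Cap IP by 2.29 ± 0.31 on the log2 scale in vector cells (edgeR adjusted p = 2.12e-05), as was RPS11P5. PTS, an enzyme of tetrahydrobiopterin synthesis with an exon opposite RPS6P16, was higher by 1.11 ± 0.42 (edgeR adjusted p = 0.0411), while RPS6P16 had 0.16 ± 0.47 (adjusted p = 0.819). TOP3A, a DNA topoisomerase around RPL7AP65, was lower by 2.00 ± 0.37 (edgeR adjusted p = 3.17e-04), and SIN3A, around RPL13P4, by 0.95 ± 0.29 (edgeR adjusted p = 0.0148). ADIPOR2, around RPS4XP14, was lower by 0.93 ± 0.31 (edgeR adjusted p = 0.0214). ZSWIM6 (-0.37 ± 0.52), TAOK3 (-0.75 ± 0.61) and POLQ (-1.07 ± 0.87) did not pass the test, nor did KIFC1 (-0.32 ± 0.27) and ERGIC3 (-0.06 ± 0.33). In EIF4E-Flag cells the calls were partly others. GOLGA3 was lower there too (-2.77 ± 0.32, edgeR adjusted p = 3.43e-06), while RPS11P5 was not called. TOP3A (-1.93 ± 0.35) and ADIPOR2 (-0.91 ± 0.29) were again called lower, and so were ZSWIM6 (-1.70 ± 0.62, edgeR adjusted p = 0.0316), KIFC1 (-0.92 ± 0.28) and ERGIC3 (-1.11 ± 0.34). SIN3A (-0.27 ± 0.29), PTS (0.23 ± 0.42), TAOK3 (-1.16 ± 0.72) and POLQ (-1.39 ± 0.81) did not pass the test there. For none of these 10 genes was the difference between both kinds of cells called. These rows are gene counts, and their part in the counts of the pseudogenes was not tested.

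The study's main question was whether EIF4E-Flag changed capping, that is, the Cap IP over input. No member was called for this difference, and neither was any of the 12460 genes (0 percent). DESeq2 called no member either. On simulated data this comparison recovered 0 percent of 2-fold and 33 percent of 4-fold changes. These changes were placed in genes drawn from all 12460 tested, so the shares are not those of members with few Cap IP counts. The lack of a call therefore does not show that the Cap IP over input stayed the same. At an unadjusted p under 0.05 edgeR listed 3 members among 728 genes. RPL23AP64 had a difference of 1.92 ± 0.59 on the log2 scale (edgeR adjusted p = 0.833), from -3.64 in vector to -1.72 in EIF4E-Flag cells. RPL7AP65 had 2.496 ± 1.00 (edgeR adjusted p = 0.833). RPL3P6, the third, had no Cap IP count in vector cells and 3 in EIF4E-Flag cells, all in replicate 3, so that 1 library made its value. The median difference over the 19 was 0.385, against 0.019 over all genes. It was 0.454 in other pseudogene families and 0.537 in nuclear copies of mitochondrial genes. Other processed pseudogenes had 0.685 opposite an exon and 0.225 in an intron on the opposite strand. The 19 include RPS4XP6 and RPL13P4, which had 0 Cap IP counts in both kinds of cells, so that their difference is not measured.

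In input, 1 member was called between EIF4E-Flag and vector cells, with a background of 0.104 percent of genes higher and 0.425 percent lower. RPL13AP20 copies RPL13A, a large subunit protein, and lies at chr12:12875499-12876107 with no other gene over it. It had 1, 8 and 1 counts in the libraries of vector input and 19, 43 and 38 in those of EIF4E-Flag input. Scaled, this was 1.78 ± 2.16 against 16.1 ± 7.45 CPM (SD, n = 3), with no overlap, and a log2 change of 3.13 ± 0.61 (edgeR adjusted p = 0.0259). Of all genes, 8.45 percent were higher in input without overlap. RPL13A did not pass the test, with 0.06 ± 0.29 (adjusted p = 0.953). The call of RPL13AP20 was lost without replicate 1 or 3 of vector input or replicate 2 or 3 of EIF4E-Flag input, with log2 changes between 2.59 and 2.96. It was also lost with total counts as library sizes (edgeR adjusted p = 0.0562) and when only the input groups were fitted (edgeR adjusted p = 0.0878). Without replicate 2 of vector input, which held 8 of the 10 vector counts, the log2 change was 4.77 (edgeR adjusted p = 0.00809).

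In Cap IP the counts of RPL13AP20 were 2, 2 and 3 in vector Cap IP and 9, 11 and 13 in EIF4E-Flag Cap IP, with no overlap. Of all genes, 6.16 percent were higher in Cap IP without overlap. The log2 change was 2.42 ± 0.71 with an edgeR adjusted p of 0.232. Its Cap IP over input did not pass the test in either kind of cell, with 0.17 ± 0.84 in vector and -0.54 ± 0.52 in EIF4E-Flag cells.

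In Cap IP, no member was called between EIF4E-Flag and vector cells, where 0.0803 percent of genes were higher and 0.144 percent lower, and DESeq2 called none. At an unadjusted p under 0.05 edgeR listed 4 of the 19 members and 1146 of all genes. RPL12P14 had 71, 73 and 28 counts in vector Cap IP and 131, 325 and 132 in EIF4E-Flag Cap IP, with no overlap, and a log2 change of 1.85 ± 0.51 (edgeR adjusted p = 0.182). With the tag in the library titles as a block, it was called, with a log2 change of 1.90 and an edgeR adjusted p of 0.0108. Replicate 2 of EIF4E-Flag Cap IP, with 325 counts, was the highest. In input RPL12P14 had a log2 change of 1.31 ± 0.54 (edgeR adjusted p = 0.283), and RPL12 had 0.29 ± 0.32 in input and -0.19 ± 0.33 in Cap IP. RPL23AP64 had a Cap IP change of 2.01 ± 0.50 (edgeR adjusted p = 0.114) and an input change of 0.09 ± 0.30.

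**Figure D5:**
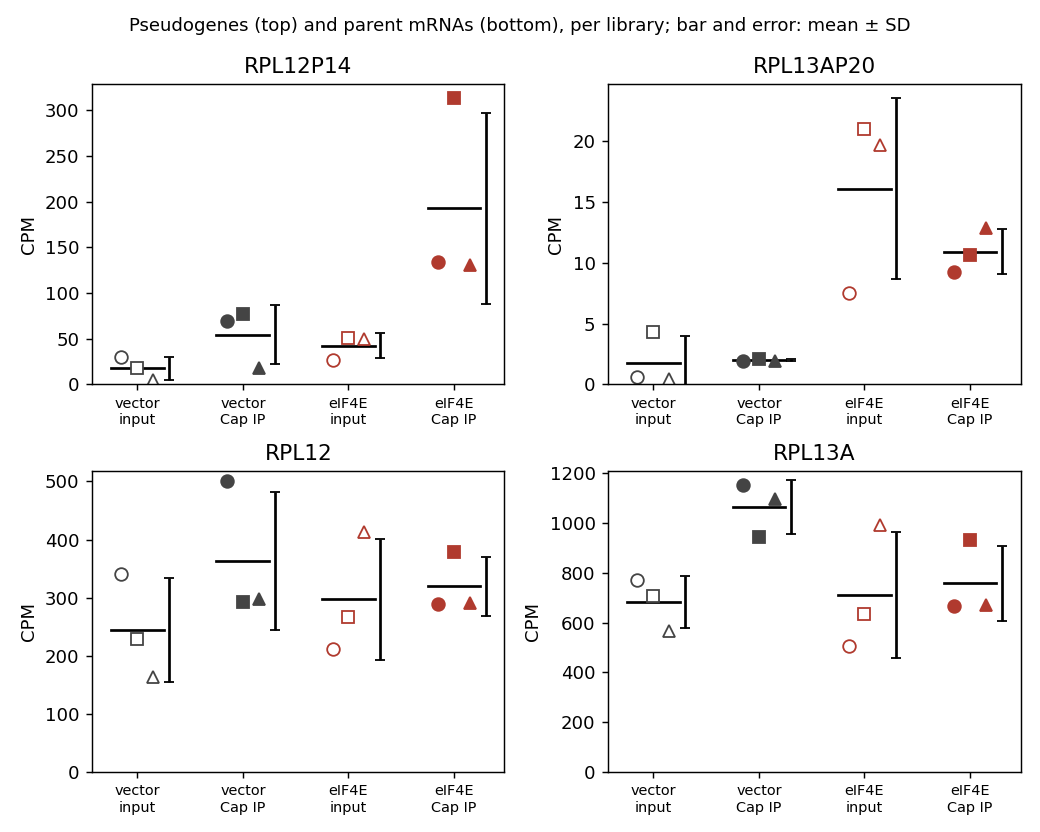
Points are CPM (vertical axis) of RPL12P14 and RPL13AP20 (top) and their parent mRNAs RPL12 and RPL13A (bottom) in each library, with circle, square and triangle for replicates 1, 2 and 3, open for input and filled for Cap IP, and bars for the mean ± SD of 3. RPL13AP20 lies at 1.78 ± 2.16 CPM in vector input and 16.1 ± 7.45 CPM in EIF4E-Flag input, while the libraries of RPL13A overlap.

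The other members in input lay mostly below vector without passing the test. The median log2 change of the 19 was -0.381, against -0.049 over all genes, and that of the 9 tested intron members was -0.82. The 4 tested members that overlap no other gene had a median of 0.794. Some lists of other pseudogenes lay below vector too, where 6657 of all 12460 genes were negative. The other processed pseudogenes in an intron on the opposite strand had a median of -0.677, with 53 of 60 negative. The list of other pseudogene families had -0.98, with 26 of 28 negative. Other processed pseudogenes opposite an exon had -0.527, with 34 of 41 negative. Those that overlap no gene had -0.0653, with 7 of 12 negative, and nuclear copies of mitochondrial genes had -0.13. RPS24P6 had -1.26 ± 0.46 (edgeR adjusted p = 0.227) and RPL7AP65 had -1.34 ± 0.54 (edgeR adjusted p = 0.281). The libraries of both did not overlap, as was so for 10.2 percent of all genes in this direction. Replicate 3 of vector input, the deepest library, held 317 of the 679 input counts of the intron members in vector cells, 51 of the 78 counts of RPL3P6, 28 of the 43 of RPS4XP6 and 39 of the 47 of RPL7AP6. In Cap IP the median of the 19 was 0.0047, which is the value of RPL41P5 (SE 1.17), against -0.012 over all genes.

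The 8 members kept out of the fit were low throughout. RPS15AP11 had 8, 7 and 7 counts in vector input and 2, 2 and 2 in Cap IP, and 13, 7 and 7 against 1, 1 and 1 in EIF4E-Flag cells, so that Cap IP was lower in every library. Its parent row RPS15A was itself low, with 8 to 30 counts per library. RPL7P42, a copy of RPL7 opposite NUP107-DT, had 0, 0 and 3 counts in EIF4E-Flag input and 7, 4 and 4 in EIF4E-Flag Cap IP. Fitted without a filter on low counts, RPL7P42 was called higher there (3.05 ± 0.93, edgeR adjusted p = 0.00837). In the same fit RPS4XP14 (-3.38 ± 1.13, edgeR adjusted p = 0.0211) and RPL7AP6 (-2.01 ± 0.76, edgeR adjusted p = 0.0482) were called lower in vector Cap IP. RPL7AP6 had 39 of its 75 counts in replicate 3 of vector input.

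Scaling set the level against which all of these were read. TMM, which takes the average gene as unchanged, gave factors of 1.17 to 1.49 in input and 0.667 to 0.891 in Cap IP. With total counts in its place the median log2 change of all genes in Cap IP against input was -0.781 in vector and -0.985 in EIF4E-Flag cells, and the share higher among genes called went from 46.9 to 12.8 percent and from 48.5 to 15.8 percent. The members then split into 1 higher and 11 lower in vector cells, and 1 higher and 12 lower in EIF4E-Flag cells. RPL13P12 stayed called in vector cells and RPL12P14 in EIF4E-Flag cells. RPL12P14 (0.86), RPL23AP82 (0.36) and RPL18P13 (0.67) kept a positive sign in vector cells without the call, as did RPL13P12 (0.14), RPL23AP82 (0.47) and RPL18P13 (0.85) in EIF4E-Flag cells.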

How the data were processed

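RNA of U2OS cells with EIF4E-Flag or vector was sequenced as input and Cap IP, in 4 groups of 3 libraries. The authors deposited whole-number counts of reads for each gene symbol, not normalized, per the file headers. The submitters' processing notes name STAR 2.5.1b for alignment, featureCounts 1.4.5-p1 for counting, GRCh38.p5 and DESeq2. The annotation, the strand setting and the treatment of reads with several places are not named there. They decide how reads shared by a pseudogene, its parent or the gene around it were counted. Per the labels, the kit was KAPA RNA HyperPrep with RiboErase and reads were single-end, with 75 cycles.

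Counts were tested in R 4.3.3 with edgeR 4.0.16. Genes were kept by filterByExpr (12460 of 58684), scaled by TMM, and fitted by quasi-likelihood with a mean for each of 4 groups. There were 5 comparisons, each adjusted by Benjamini-Hochberg over all genes, with a threshold of 0.05. CPM uses TMM-scaled library sizes. DESeq2 1.42.0 was an alternative. The scripts were tested on simulated data, where the 5 comparisons recovered 0 to 7 percent of 2-fold changes and 33 to 69 percent of 4-fold changes. The changes were placed in genes drawn from all those tested, each with the same mean level in all groups before the change. Replicates differed beyond sampling noise (chi-square over its degrees of freedom 5.98 to 23.0).

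Places and sequences came from GENCODE 44 on GRCh38, by symbol, and alignments to parents were made with Biopython 1.88. A parent is the symbol left when the P and its number are removed. The members and lists were chosen with earlier results of these data known. The text names the 6 members with the most counts, up to 5 members called in each direction of each comparison, the 3 rows on each side of the count threshold, and their parents. Other members and the genes around them were named after their values were seen. Of the list of other pseudogene families, 28 of 43 rows were tested, with 3 higher and 12 lower in vector Cap IP (5 and 14 with the title stem as a block) and 8 higher and 8 lower in EIF4E-Flag Cap IP. From that list 7 rows of protein-coding genes had been left out.

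Pairing was checked by the correlation of deviations from group means. Libraries sharing a title stem gave correlations of 0.429, 0.271 and 0.44 in vector cells. In EIF4E-Flag cells they gave 0.354, 0.0797 and 0.111. Libraries sharing a title tag gave 0.203, 0.156 and 0.305 in Cap IP and 0.182, 0.0126 and -0.0363 in input. The pairing was taken to hold for stems in vector cells and tags in Cap IP, where every value was over 0.1, and the blocked value stands beside a result there where it changed a member's call or moved a count by over 1.5 times. The blocked value also stands beside calls of Cap IP against input in vector cells that leaving out a library ended. Some results on 2 genes are not reported here.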

Additional observations from a re-analysis of the deposited data

Results flagged for a closer look

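RPL36P4, a copy of RPL36 opposite an exon of ERGIC3, moved one way in vector cells and the other way in EIF4E-Flag cells. Its log2 ratio of Cap IP to input within libraries of the same title stem, with 2 CPM added to each, was -0.862, -0.528 and -0.85 in vector cells. In EIF4E-Flag cells it was 0.0407, 1.2 and 0.484. Vector input held 8, 13 and 12 counts of it and Cap IP of the same cells 2, 4 and 3. EIF4E-Flag input held 15, 2 and 3 and Cap IP 6, 5 and 3. RPL36P4 did not pass the filter on low counts. Fitted without that filter, its difference of Cap IP over input was 1.65 ± 1.00 on the log2 scale with an edgeR adjusted p of 1. In that fit Cap IP against input was not called in vector cells (-1.18 ± 0.71, edgeR adjusted p = 0.305) or EIF4E-Flag cells (0.47 ± 0.70, edgeR adjusted p = 0.709). An opposite movement is thus not shown.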

How the results depend on the processing

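DESeq2 and DESeq2 size factors gave 11 to 14 members called for Cap IP against input in both kinds of cells. With at least 50 counts in 3 libraries required, 5 members in vector and 4 in EIF4E-Flag cells were called, and 0 between kinds of cells in input, because fewer members were tested. Restricted to members with at least 100 counts, 9 were called in vector cells. Fitting only the groups compared, with the filter reapplied to them, gave 5 members in EIF4E-Flag cells, where 6 of the members called were no longer tested, and 0 in input. That setting has no separate form for the difference of Cap IP over input, which needs all groups. Total counts as library sizes gave 0 in input, and the ratio of the summed CPM of all members in Cap IP to input became 0.655 in vector (1.11 with TMM) and 0.923 in EIF4E-Flag cells (1.66 with TMM). With no filter on low counts 2 members were called in input (RPL13AP20 and RPL12P14) and 2 in Cap IP (RPL12P14 and RPL13AP20), for which the cause was not tested.

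Leaving out 1 library at a time gave 11 to 13 members in vector cells, 9 to 11 in EIF4E-Flag cells, 0 to 1 in input, and 0 for Cap IP and for the difference of Cap IP over input. The replicate block by title stem gave 14 in vector cells, and 12 in EIF4E-Flag cells with RPS6P16 (1.10, edgeR adjusted p = 0.0473) added. In EIF4E-Flag cells the pairing by stem was not taken to hold. The block by title tag gave 1 member in Cap IP and 1 in input, and the blocks changed no other call of a member.

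Ribosomal protein mRNAs called in vector cells (28, all higher) numbered 4 with total counts (2 higher and 2 lower), 47 with the stem block and 15 to 31 on leaving out a library. In EIF4E-Flag cells (6, all higher) total counts gave the opposite result, with 30 lower and 0 higher and 0 genes shared with the 6. There they numbered 2 with no filter, 12 with 50 counts in 3 libraries, 16 with the stem block and 2 to 16 on leaving out a library. In input 1 was called with no filter. Other pseudogene rows called numbered 2 in vector cells (15) and 3 in EIF4E-Flag cells (16) with 50 counts in 3 libraries. In input they numbered 1 with no filter and 2 with the tag block, and in Cap IP 1 with no filter. The causes were not tested.

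Values near 0 that no fit called changed sign on leaving out a library. In EIF4E-Flag cells RPL7AP65 ranged from -0.305 to 0.20. For the difference of Cap IP over input, RPL12P14 ranged from -0.0798 to 1.01, RPL23AP82 from -0.07 to 0.577 and RPL18P13 from -0.0345 to 0.642. In input RPL13P12 ranged from -0.0154 to 0.422, RPL23AP64 from -0.0296 to 0.182 and RPS11P5 from -0.415 to 0.0163, and in Cap IP RPL23AP82 from -0.604 to 0.041. Of the other values of named members under an alternative, 608 kept direction and side of the threshold, 29 lost the call and 9 gained it. Depth limits all members, since 3 counts stand for up to 3.15 CPM and members in Cap IP often had fewer.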
